A study of Ovis aries with 9 samples.

Results

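Sheep liver cells with proliferation transcripts were chosen on measured values: a cell was a member when it had at least 1 read for 3 or more of 8 genes of the dividing cell (MKI67, TOP2A, CCNB1, CCNB2, CDK1, CCNA2, UBE2C and NUSAP1). The rule found 97 members among 3404 cells. They were compared, stage by stage, with the 2719 cells that had reads for none of the 8 genes, and the 588 cells with reads for 1 or 2 of them stayed out. The cells are labelled hepatocytes and came from livers of female sheep (Ovis aries). They were picked by hand, and each cell gave its own library by Smart-seq3xpress, a method run in multi-well plates. There was 1 sample per stage: virgin sheep, 6 windows of pregnancy (gestation days 40 to 50, 50 to 70, 70 to 80, 90 to 100, 100 to 120 and 140 to 150) and lactation days 7 and 15. The labels used here give no breed, age, treatment or number of animals per stage, and all stages share the cold storage and collagenase digestion of the liver. Depth ran from 36518 to 3842012 reads per cell, with a median of 416564.

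Adult hepatocytes are mostly quiescent and can return to the cell cycle. A cell first copies its DNA with the MCM helicase, the PCNA clamp and enzymes that make nucleotides, and later builds the spindle, condenses its chromosomes and divides under cyclins A and B with their kinase CDK1. Hepatocytes can also copy their DNA without separating, so transcripts of the cycle do not by themselves show that a cell divided. The work of the liver is divided along the lobule: cells next to the central vein hold glutamine synthetase and much of the drug-oxidising cytochrome P450, and cells next to the portal tract hold much of the urea cycle and of gluconeogenesis.

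Members were most frequent in virgin sheep and at gestation days 70 to 80. In virgin sheep 43 of 531 cells were members (8.10%, exact Clopper-Pearson 95% interval 5.92 to 10.8%), and at days 70 to 80 it was 27 of 253 (10.7%, 7.15 to 15.1%). These intervals overlap. In the other 5 gestation stages the share lay between 0.505% (2 of 396, days 90 to 100) and 1.42% (5 of 353, days 100 to 120). On lactation day 7 it was 7 of 246 (2.85%, 1.15 to 5.77%), and on day 15 it was 3 of 553 (0.542%, 0.112 to 1.58%). The intervals cover counting error only, and the spread between animals of a stage was not measured.

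The mean share was 2.58% ± 3.98 (SD, n = 6) over the gestation stages and 1.69% ± 1.63 (SD, n = 2) over the lactation stages. The difference was smaller than the spread (two-sided exact permutation test over 28 arrangements, p = 0.857, smallest possible 0.0357). Without days 70 to 80 the gestation mean was 0.960%, which changed the sign of the difference to -0.734 percentage points (exact permutation p = 0.381). Without lactation day 15 it was -0.267 points. In cells thinned to 155164 reads, which left out 341 shallower cells, the share was 10.3% at days 70 to 80 and 4.37% in virgin sheep, so the virgin value moved with depth by more than 1.5 times.

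**Figure D1:**
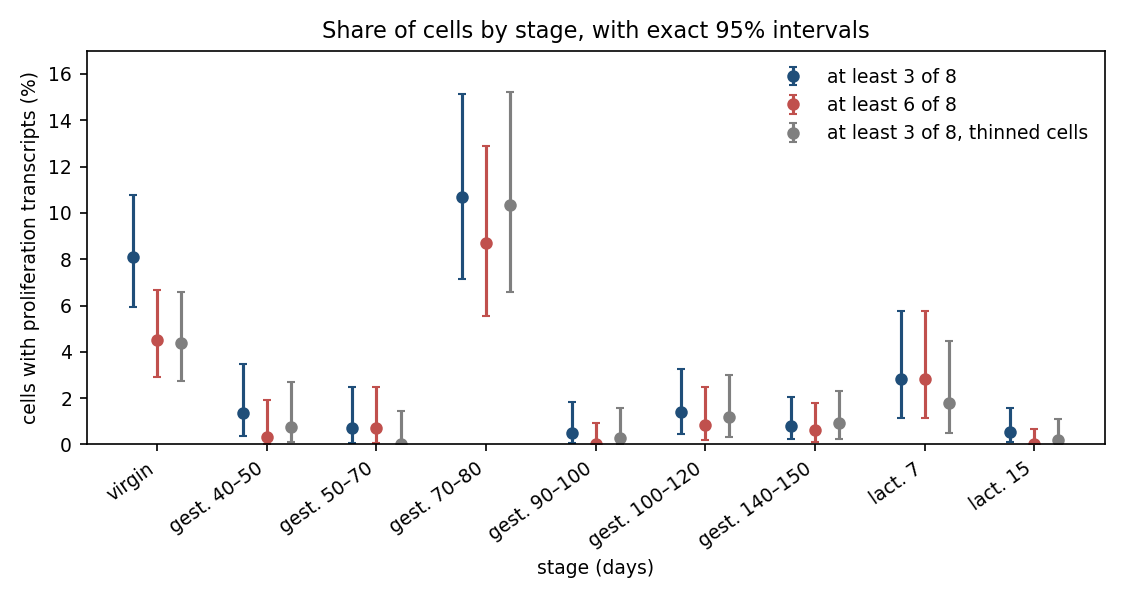
Percent of cells (vertical axis) with reads for at least 3 of the 8 genes, for at least 6 of the 8, and for at least 3 in cells thinned to one depth, in each of the 9 stages; points are shares and bars are exact 95% intervals. Virgin sheep (8.10%) and gestation days 70 to 80 (10.7%) stand above the other stages, whose shares for at least 3 genes run from 0.505% to 2.85%.

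The deposited columns of a stage lie in runs of consecutively numbered cells, which the labels do not explain. All 43 virgin members lay in 1 run of 451 cells. The other virgin run held 0 members among 80 cells, which allows a share of up to 4.51% (upper bound of the exact interval). At days 70 to 80 the runs held 2 of 89, 20 of 119 and 5 of 45 cells. The sources used here do not say whether a run is an animal or a plate, so run and stage cannot be told apart. Comparison cells were taken from every run of a stage, so those of virgin sheep include the run without members.

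The 8 selecting genes fixed who the members are, so their levels are given as a description, with no test. Members held 92.2% of all reads on the 8 genes in the table. TOP2A, the topoisomerase that untangles copied DNA, had reads in 91 of 97 members, and UBE2C, a ubiquitin-conjugating enzyme of mitotic exit, in 90. CCNA2 (cyclin A2) and NUSAP1, a spindle protein, had reads in 72 each. MKI67, which coats mitotic chromosomes, and CCNB1 (cyclin B1) had reads in 68 each, CDK1 in 64 and CCNB2 (cyclin B2) in 61. TOP2A was also the one most often seen outside the members, in 184 cells.

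Members differed widely in how much of these genes they held. In 62 members 6 to 8 of the genes had reads, with a median of 1431 CPM on the 8 genes together (reads scaled to 1000000 per cell). In the other 35 members 3 to 5 genes had reads, with a median of 8 reads and 15.6 CPM. Just inside the threshold, the 24 cells with exactly 3 genes had a median of 14.6 CPM, and just outside it the 103 cells with 2 genes had 12.5 CPM. Below, the 62 cells are called the upper band and the 35 the lower band, a division made after seeing the data. Virgin sheep had 24 members in the upper band and 19 in the lower, and days 70 to 80 had 22 and 5. All 7 members of lactation day 7 were in the upper band, and all 3 of day 15 and both of days 90 to 100 in the lower.

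**Figure D2:**
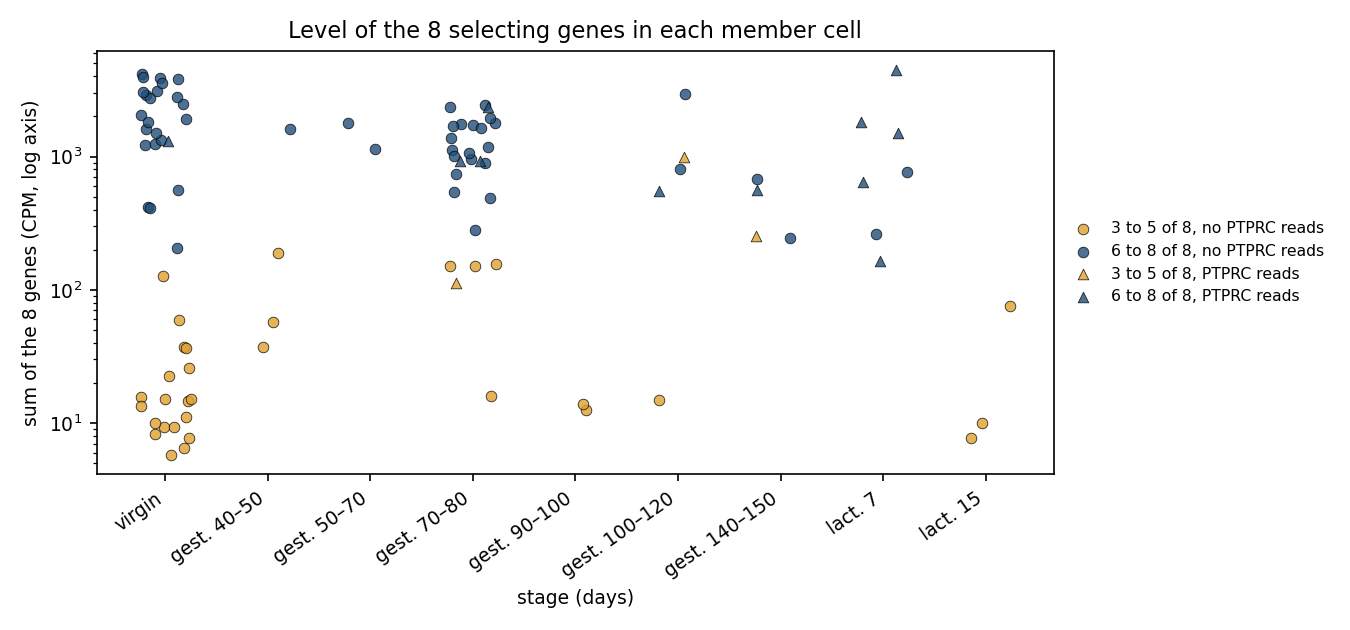
Summed level of the 8 selecting genes (vertical, CPM on a log axis) in each of the 97 member cells by stage; blue points have reads for 6 to 8 of the genes, orange points for 3 to 5, and triangles mark cells with reads of the leukocyte gene PTPRC. Blue cells lie between 165 and 4463 CPM and orange cells between 5.73 and 999 CPM.

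BIRC5 (survivin, of the complex that guides chromosome segregation) took no part in the choice. It had reads in 59 of 62 cells of the upper band, with a median of 415 CPM. In the lower band 17 of 35 cells had reads (48.6%), with a median of 0 CPM. That share was 43.9% in cells with 1 or 2 of the 8 genes and 31.7% (863 of 2719) in cells with none. In the upper band BIRC5 had reads in 24 of 24 virgin cells (median 550 CPM), in 22 of 22 at days 70 to 80 (median 540 CPM) and in 5 of 7 on lactation day 7 (median 38.6 CPM). Upper-band cells of lactation day 7 were therefore lower in median BIRC5 than those of the other 2 stages.

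TPX2, a spindle assembly factor also kept out of the choice, separated the cells less. It had reads in 2131 of the 2719 cells with none of the 8 genes, at a median of 21.8 CPM. The median was 186 CPM in the upper band and 29.7 CPM in the lower.

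For a test across genes, reads were summed over members and over comparison cells in each stage with at least 5 members: virgin, gestation days 70 to 80, days 100 to 120 and lactation day 7. The fit used 82 members and 970 comparison cells with stage as a block, and the 15 members of the other 5 stages did not enter. Of 14534 genes tested outside the 8, 235 were called at an adjusted p under 0.05 (1.62%), with 194 higher in members (1.33%) and 41 lower (0.282%). The median of all genes lay at -0.25 log2, and at -0.02 when sums were scaled by library size alone. With library size alone 237 genes were higher and 14 lower, so the count of lower genes depends on the scaling. It also depends on the runs of columns. With comparison cells only from runs that hold members, a choice made after seeing the data, 189 genes were higher and 27 lower. From here on, levels of single genes per stage are CPM of the summed reads after TMM scaling, given over all 9 stages.

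Genes of mitosis were the list with the most calls. Of 53 tested outside the 8, 47 rose and 0 fell, with a median of 7.20 log2 against -0.25 over all genes. With equal weight per cell that median was 3.03 log2, against 0.12 over all genes, so its size depends on the method. The members were chosen on genes of the same programme, so the counts and medians of this list describe the choice. BIRC5 stood at 9.01 to 423 CPM in members (median 98.5) and 4.71 to 16.2 CPM in comparison cells (median 8.20). It was higher in members of 9 of 9 stages, and the ranges overlap through days 90 to 100 and lactation day 15, where all members were in the lower band. It rose by 4.34 log2 (SE 0.51, edgeR adjusted p = 0.0023). TPX2 stood at 10.8 to 165 CPM in members (median 73.5) and 30.6 to 54.7 CPM in comparison cells (median 38.5), higher in 6 of 9 stages (7 with library size alone). It rose by 1.46 log2 (SE 0.22, edgeR adjusted p = 0.011), a call lost without the virgin stage and without days 70 to 80.

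Many mitosis genes were near 0 in comparison cells, where a fitted fold depends on the prior count, so their levels are given instead. PRC1, which bundles the central spindle, had a median of 40.1 CPM in members and at most 0.313 CPM in comparison cells of any stage. CENPF and CENPE of the kinetochore, where chromosomes meet the spindle, had medians of 60.4 and 19.3 CPM, and NDC80, also of the kinetochore, of 27.8 CPM. BUB1B and CDC20 of the spindle checkpoint stood at 23.4 and 22.7 CPM. NCAPG, a condensin subunit, KIFC1, a spindle motor, ANLN, a scaffold of the cleavage furrow, and DLGAP5 and DEPDC1, both of mitosis, had medians between 8.42 and 25.5 CPM. All were called higher, and each had at least 1 stage in which members were listed at 0.

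Other mitosis genes were measurable in comparison cells as well. CKS2, a partner of the cyclin-dependent kinases, stood at a median of 280 CPM in members and 3.21 CPM in comparison cells and rose by 6.86 log2 (SE 0.31, edgeR adjusted p = 4.6e-05). SPC24 of the kinetochore rose by 5.81 log2 (SE 0.35), with medians of 144 and 2.05 CPM. SMC4 of condensin rose by 4.68 log2 (SE 0.27), with a median of 77.5 CPM in members and at most 7.28 CPM in comparison cells. These calls held when each of the 4 stages was left out in turn.

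Of 53 DNA replication genes tested, edgeR called 18 higher and 0 lower, with a median of 2.73 log2. Estimates were above 0 for 49 of them, 40 were higher at an unadjusted p under 0.05 and DESeq2 called 37 higher. These counts too are linked to the choice of members on genes of the cycle. RRM2, a subunit of the enzyme that makes deoxynucleotides, had a median of 30.3 CPM in members and at most 0.0722 CPM in comparison cells, with reads in 35 of 97 members. UHRF1, which helps copy DNA methylation, stood at 17.4 CPM with reads in 39 members, and CLSPN, of the replication checkpoint, at 9.30 CPM with reads in 34. PCNA ran from 5.43 to 254 CPM in members (median 108) and from 9.15 to 16.8 CPM in comparison cells (median 13.1). It was higher in 7 of 9 stages, lower at days 40 to 50 and on lactation day 15, and rose by 2.94 log2 (SE 0.38, edgeR adjusted p = 0.0037).

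Genes that build chromatin and the spindle rose in 10 of 13 tested cases (0 fell, median 2.66 log2). STMN1, which binds free tubulin, ran from 3.60 to 1577 CPM in members (median 291) and from 0.859 to 2.36 CPM in comparison cells, with no overlap, and rose by 8.23 log2 (SE 0.53). DUT, which keeps uracil out of DNA, rose by 3.78 log2 (SE 0.34), LMNB1 of the nuclear lamina by 3.62 log2 (SE 0.30) and HMGN2, a nucleosome-binding protein, by 2.27 log2 (SE 0.19). The sources used here do not say how reads shared by near-identical gene copies were counted, so a value such as that of HMGN2 is uncertain if copies exist.

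Replication RNA and mitosis RNA did not go together in every member. For each stage a line was set at the 99th percentile of the comparison cells, once for the summed mitosis genes outside the 8 and once for the summed replication genes. In the upper band 29 of 62 cells were above both lines, 32 above the mitosis line only, 0 above the replication line only and 1 above neither. In virgin sheep 14 of the 24 upper-band cells were above both and 10 above the mitosis line only, and at days 70 to 80 these were 5 and 17 of 22. In the lower band 24 of 35 cells were above neither. Members were chosen on genes of the same programme as the mitosis genes, and upper-band cells had reads for the most of them. The upper-band counts, with 0 above the replication line only, therefore describe the choice. Of the 588 cells with reads for 1 or 2 of the selecting genes, 14 were above the replication line only. Another 13 were above both lines, 5 above the mitosis line only and 556 above neither. The lines divide a continuous range and name no cell type.

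**Figure D3:**
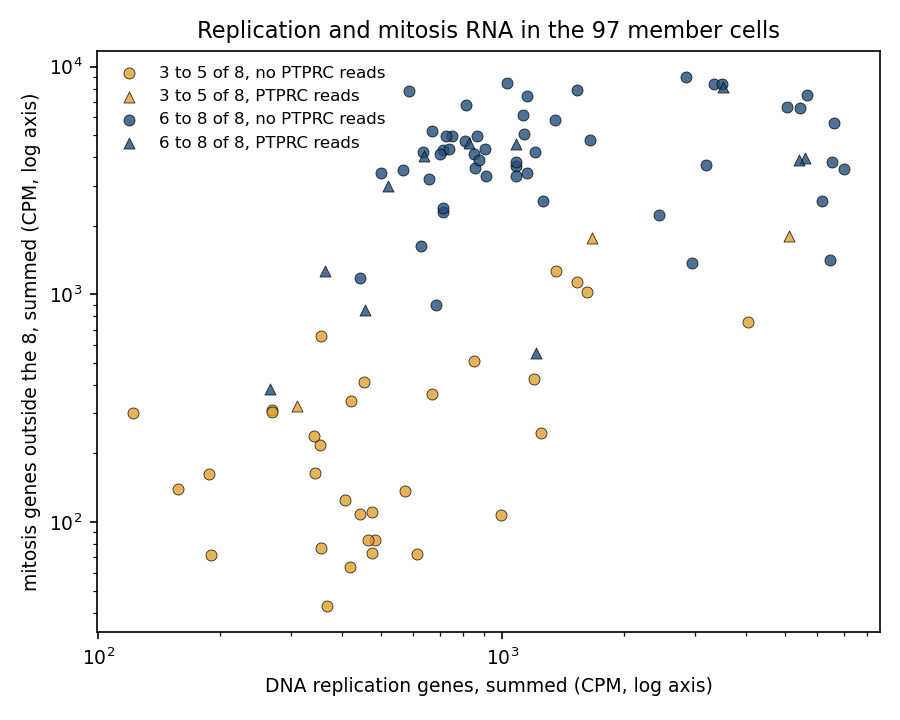
Each point is one of the 97 member cells, with summed DNA replication genes on the horizontal axis and summed mitosis genes outside the 8 on the vertical axis (CPM, both log axes); blue points have 6 to 8 selecting genes, orange points 3 to 5, and triangles mark cells with PTPRC reads. Most blue cells sit high on the mitosis axis (median 4098 CPM) over replication levels from 266 to 7017 CPM, and most orange cells sit low on both axes (medians 238 and 454 CPM).

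Other regulators of the cycle were taken from 2 chosen lists, which do not hold every called regulator. Of 16 tested genes of cyclin D, kinase inhibitors and p53 targets, 1 rose and 0 fell (median 0.14 log2). It was CDKN2C, an inhibitor of the cyclin D kinases, which rose by 6.35 log2 (SE 0.77, edgeR adjusted p = 0.0028), with medians of 13.5 CPM in members and 0.636 CPM in comparison cells. CDKN2D, an inhibitor of the same kinases outside the list and chosen here after its value was seen, rose by 4.81 log2 (SE 0.67, edgeR adjusted p = 0.0057). Of 18 growth signal genes FOXM1 and E2F2 rose, transcription factors of mitotic and replication genes, with reads in 32 and 23 of 97 members. A single member held 34.6% of the members' E2F2 reads, and its call was lost when any of 3 of the 4 stages was left out. Of 23 immediate early and dissociation genes 1 rose, IER5, by 3.02 log2 (SE 0.43, edgeR adjusted p = 0.0064), a call lost without lactation day 7.

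Depth did not differ in 1 direction. Median reads per cell were 448494 in members and 465378 in comparison cells of virgin sheep, and 558124 and 365115 at days 70 to 80. At days 100 to 120 they were 790581 and 464380, and on lactation day 7 they were 190914 and 398542. The mean log2 ratio of the medians was 0.07 (two-sided exact sign-flip permutation test over 4 stages, p = 1, smallest possible 0.125).

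At equal depth, members had more detected genes in each stage measured. Members were chosen at full depth for detected genes, and comparison cells for the lack of them. The count of detected genes is therefore linked to the choice, and the test below cannot separate it from the choice. Leaving out the 8, the medians of thinned cells were 6835.5 genes in members and 5843 in comparison cells of virgin sheep, 6718 and 6375 at days 70 to 80, and 5209 and 4594.5 at days 100 to 120. Lactation day 7 kept fewer than 5 members at that depth. The mean difference was 650 genes, higher in 3 of 3 stages (exact sign-flip permutation p = 0.25, the smallest that 3 stages allow).

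All members carried hepatocyte RNA, measured as the share of reads on 13 markers (ALB, APOA1, APOB, APOH, TTR, TF, SERPINA1, FGA, FGB, FGG, AHSG, AMBP and HNF4A). Per cell, the share ran from 0.518 to 30.5% in members and from 0.521 to 34.4% in comparison cells. Its presence alone therefore does not show that a cell is a hepatocyte, and the lowest member also held leukocyte RNA (below). Summed by stage, the share ran from 11.6 to 21.8% in members and from 10.7 to 22.6% in comparison cells. Members were lower in 7 of 9 stages, by 2.0 percentage points on average ± 2.23 (SD of the 9 stage differences, not tested). They were at 19.2 against 21.0% in virgin sheep, 15.7 against 18.7% at days 70 to 80 and 12.8 against 19.2% at days 140 to 150. They were higher on lactation day 15 (11.6 against 10.7%) and level at days 90 to 100 (20.4% in both), the stages whose members were all in the lower band.

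The upper band was lower than the lower band in this share. The median per cell was 14.2% in the upper band, 18.9% in the lower and 18.6% in cells with none of the genes. With the upper band alone the mean difference over 7 stages was -4.56 points, lower in 7 of 7. Of all members, 27 of 97 lay below the 5th percentile of the comparison cells of their stage, 11 of them at days 70 to 80 and 9 in virgin sheep. CPM are shares of a cell's reads, so less hepatocyte RNA and more of other RNA cannot be told apart.

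**Figure D4:**
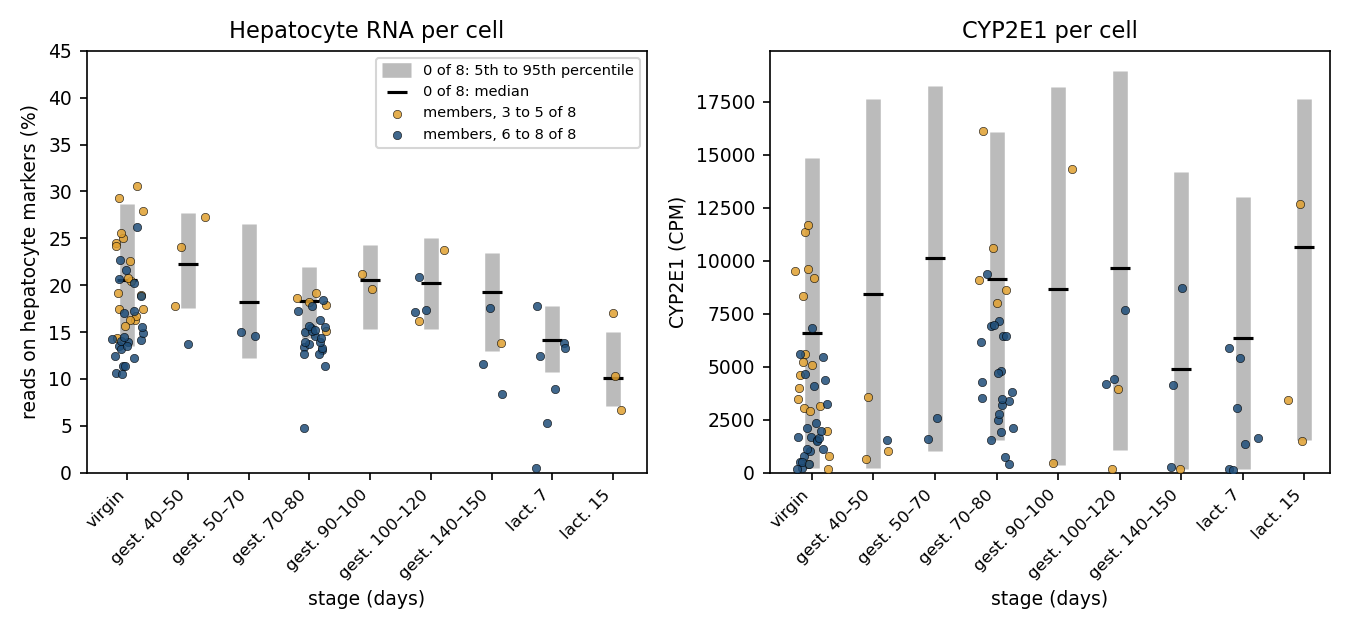
Percent of reads on 13 hepatocyte markers (left) and CYP2E1 in CPM (right) in each member cell by stage; grey bars span the 5th to 95th percentile of the comparison cells and black ticks their median. Blue points (6 to 8 selecting genes) lie mostly below the ticks in both panels, and in virgin sheep their median hepatocyte RNA is 14.2% against 20.5% in comparison cells, while orange points (3 to 5 genes) spread around the ticks on the left.

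No hepatocyte marker was called by edgeR in the 4 stages: 0 of 13 rose and 0 fell, 6 were lower at an unadjusted p under 0.05, and DESeq2 called 2 lower. All 13 estimates were below 0, with a median of -0.36 log2 against -0.25 over all genes. ALB (albumin, the main plasma protein) ran from 45486 to 125726 CPM in members (median 71584) and from 34471 to 128352 CPM in comparison cells (median 104053). It was lower in 8 of 9 stages, and in 5 of 9 with library size alone, and its estimate was -0.33 log2 (SE 0.17, edgeR adjusted p = 0.539). TTR, a carrier of thyroid hormone, was lower in 9 of 9 stages (7 with library size alone), with an estimate of -0.36 log2 (SE 0.15, edgeR adjusted p = 0.435).

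A fit chosen after seeing the data took only upper-band members with no PTPRC reads and stages with 2 or more of them, which gave 50 members of 6 stages. Leaving out PTPRC reads did not remove all leukocyte RNA. The 2 members of lactation day 7 in this fit had 7837 and 2136 CPM on lymphocyte markers. Of its 2 members of days 140 to 150, 1 had 3701 CPM. The part of these cells in its results was not tested. In this fit 625 of 13245 genes were called (4.72%), 191 higher (1.44%) and 434 lower (3.28%), and the median of all genes was -0.58 log2. In that fit 0 of 13 hepatocyte markers rose and 10 fell, among them FGB, of fibrinogen, by 1.19 log2 (SE 0.13), APOB, of lipoproteins, by 1.16 log2 (SE 0.21) and ALB by 0.82 log2 (SE 0.10).

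Pericentral genes had a median of -0.79 log2, with 3 of 15 called lower and 0 higher. With equal weight per cell the median was -0.32 log2, against 0.12 over all genes. CYP2E1, an alcohol- and drug-oxidising cytochrome P450, ran from 1591 to 7654 CPM in members (median 3528) and from 6351 to 11882 CPM in comparison cells (median 9964). It was lower in 9 of 9 stages, also with library size alone, and the ranges overlap through members of days 90 to 100. It fell by 1.38 log2 (SE 0.19, edgeR adjusted p = 0.0064), and 84 of 97 members lay below the comparison median of their stage. The call was lost in 3 alternatives, with edgeR adjusted p of 0.082 without members low in hepatocyte RNA, 0.062 without days 100 to 120 and 0.148 without the stage block.

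GLUL, glutamine synthetase, ran from 0 to 36.4 CPM in members (median 7.33) and from 37.6 to 268 CPM in comparison cells (median 77.6), with no overlap. It fell by 2.40 log2 (SE 0.27, edgeR adjusted p = 0.00199) and stayed called when each stage was left out in turn. The sums rest on few cells. Pooled over the 9 stages, 2 of 97 members (2.06%) and 183 of 2719 comparison cells (6.73%) were above 100 CPM. By stage the comparison share ran from 2.88 to 14.0%. Lactation day 15, with 3 members, gave 68 of the 183 cells. The pooled shares do not keep the pairing by stage, so they are a description with no test. Reads of GLUL were seen in 54.6% of members and in 46.2% of comparison cells. With equal weight per cell the direction turned, to 0.23 log2 (limma adjusted p = 0.831). In the run of days 70 to 80 that held 20 of its 27 members, GLUL was at 51.5 CPM in members and 47.4 CPM in comparison cells, before TMM scaling. A single cell held 90.2% of those member reads, and without it the members were at 5.36 CPM.

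RHBG, an ammonium transporter, was lower in 7 of 9 stages and fell by 1.88 log2 (SE 0.32, edgeR adjusted p = 0.018). The call was lost without days 70 to 80, without days 100 to 120 and without lactation day 7.

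Periportal genes were called in 1 of 19 cases, with a median of -0.35 log2. PCK1, of gluconeogenesis, ran from 773 to 3385 CPM in members (median 1280) and from 2359 to 3671 CPM in comparison cells (median 3025) and was lower in 9 of 9 stages (8 with library size alone). It fell by 1.01 log2 (SE 0.16, edgeR adjusted p = 0.012), a call lost without days 70 to 80 and without days 100 to 120. CPS1, the entry enzyme of the urea cycle, was lower in 9 of 9 stages (6 with library size alone), with medians of 1383 and 2157 CPM and an estimate of -0.65 log2 (SE 0.14, edgeR adjusted p = 0.071). ARG1, the last enzyme of that cycle, had an estimate of -0.25 log2 (SE 0.16), equal to the median of all genes. Of 8 urea cycle genes 0 were called by edgeR, 5 were lower at an unadjusted p under 0.05 and DESeq2 called 1, with a median of -0.55 log2. In the fit of upper-band members without PTPRC reads 8 of 19 periportal (median -0.76 log2) and 3 of 8 urea cycle genes (median -0.81 log2) fell. Of the pericentral genes 3 of 15 fell there, with a median of -1.11 log2, against -0.58 log2 over all genes. PCK1 was at -2.16 log2 (SE 0.26), CPS1 at -1.06 log2 (SE 0.18) and ARG1 at -0.68 log2 (SE 0.21) in that fit.

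Each member was also ranked among the comparison cells of its stage by the mean log2(CPM + 1) of a list. The median percentile was 32.0 for the pericentral list and 36.3 for the periportal list. For periportal minus pericentral it was 59.2. Single genes ranked from 14.7 for PCK1 and 17.6 for CYP2E1 over 22.7 for ALB and 26.1 for CPS1 to 54.6 for GLUL. Members lay below the middle of the comparison cells on both lists, and 36 of 97 lay below the middle on the difference between them. These ranks are over cells and have no test.

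Other metabolic lists held few calls in the 4 stages. Of 38 amino acid breakdown genes 2 fell (median -0.42 log2), among them KMO, of tryptophan breakdown, by 1.19 log2 (SE 0.23, edgeR adjusted p = 0.037). Of 21 cholesterol synthesis genes 1 fell (median -0.45 log2): TM7SF2, a sterol reductase, by 1.09 log2 (SE 0.19, edgeR adjusted p = 0.022). Of 15 acute phase genes 1 fell (median -0.71 log2): CRP, C-reactive protein, by 0.79 log2 (SE 0.15, edgeR adjusted p = 0.032). KMO, TM7SF2 and CRP were each lower in 9 of 9 stages (7, 7 and 8 with library size alone), and each lost its call when any of 3 of the 4 stages was left out. In the fit of upper-band members without PTPRC reads 8 of 38, 4 of 21 and 7 of 15 genes of these lists fell, where 3.28% of all genes did. List medians there were -0.71, -0.53 and -0.85 log2, against -0.58 log2 over all genes. In that fit the median of the cholesterol synthesis list was therefore not below that of the genes in general. In the fit of the 4 stages it was below, at -0.45 against -0.25 log2, and with library size alone at -0.22 against -0.02 log2.

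No gene of the fat and bile acid lists was called by edgeR in the 4 stages. Of 25 fatty acid oxidation genes edgeR called 0, 10 were lower at an unadjusted p under 0.05 and DESeq2 called 1 (median -0.29 log2). Of 18 fatty acid synthesis genes these counts were 0, 5 and 1 (median -0.37), and of 9 bile acid genes 0, 5 and 0 (median -0.47). AKR1D1, of bile acid synthesis, had medians of 371 CPM in members and 595 CPM in comparison cells and was lower in 9 of 9 stages (8 with library size alone), with an estimate of -0.53 log2 (SE 0.20, edgeR adjusted p = 0.337). HSD17B4, of peroxisomal fat breakdown, is in none of these lists and was chosen after its value was seen; it fell by 0.80 log2 (SE 0.15, edgeR adjusted p = 0.032). In the upper-band fit 11 of 25 fatty acid oxidation, 0 of 18 fatty acid synthesis and 3 of 9 bile acid genes fell. Their medians there were -0.80, -0.63 and -0.85 log2, against -0.58 log2 over all genes.

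Energy metabolism and ribosomes lay above the median of all genes. Medians were -0.10 log2 for 16 glycolysis genes, -0.06 for 29 genes of the pentose phosphate route and nucleotide synthesis, and -0.03 for 24 respiratory chain genes. With library size alone they were at 0.14, 0.18 and 0.21, where the median of all genes was at -0.02 in place of -0.25. EdgeR called 0 genes in each. At an unadjusted p under 0.05 there were 2, 3 and 0 in either direction, and DESeq2 called 1, 0 and 0. Of 40 ribosomal protein genes 36 estimates were above 0, with a median of 0.24 log2, and of 0.59 with equal weight per cell, where all genes were at 0.12. EdgeR and DESeq2 called 0 of them, and 6 were higher at an unadjusted p under 0.05. The 2 most abundant, RPS18 and RPS14, were each lower in members of 7 of 9 stages after TMM scaling. With library size alone they were higher in 9 and 5 stages. In the upper-band fit the ribosomal median was 0.09 log2, against -0.58 log2 over all genes. GAPDH of glycolysis was at -0.05 log2 (SE 0.14) and NDUFA4 of the respiratory chain at 0.01 log2 (SE 0.17).

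**Figure D5:**
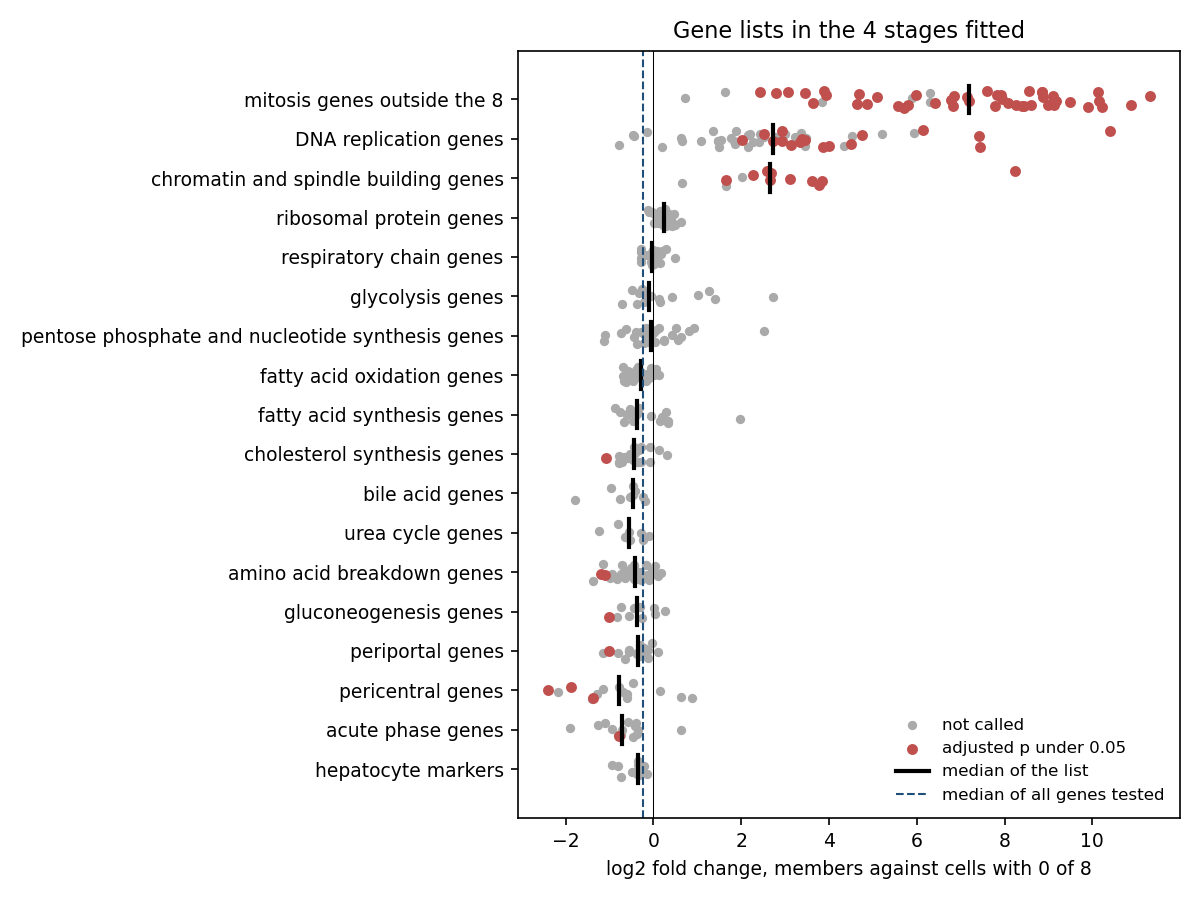
Log2 fold change of members against comparison cells (horizontal) for the genes of 18 lists; red points have an adjusted p under 0.05, black bars are list medians and the dashed line is the median of all genes tested (-0.25). Mitosis genes, many of them near 0 in comparison cells, center on 7.20 and replication genes on 2.73. Ribosomal protein genes lie close around 0.24, and the red points left of 0 include GLUL, RHBG, CYP2E1 and PCK1.

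Among other genes lower in members, 2 more cytochromes P450 stood out by the naming rule. CYP3A24 fell by 1.29 log2 (SE 0.22, edgeR adjusted p = 0.021) and CYP2A6 by 1.17 log2 (SE 0.18, edgeR adjusted p = 0.0098). Both were lower in 9 of 9 stages, though reads of such families can be split between related genes, and their calls were lost in 3 and 2 of the 4 fits that left out a stage. KRT79, a keratin, fell by 3.65 log2 (SE 0.74), ISG15, an interferon-induced protein, by 1.82 log2 (SE 0.37), CHIC2 by 1.49 log2 (SE 0.31), SORBS2 by 1.43 log2 (SE 0.26) and ORC3, of the origin recognition complex, by 1.20 log2 (SE 0.23). These 5 lost their calls in 2, 3, 4, 3 and 4 of those fits.

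Leukocyte RNA was present in part of the members, by stage. PTPRC, the pan-leukocyte surface phosphatase, had reads in 14 of 97 members (14.4%) and in 251 of 2719 comparison cells (9.23%). It had reads in 1 of 43 virgin members, 4 of 27 at days 70 to 80, 2 of 5 at days 100 to 120, 2 of 4 at days 140 to 150 and 5 of 7 on lactation day 7, and in 0 of the members of the other stages. Its estimate was 1.71 log2 (SE 1.18, edgeR adjusted p = 0.663).

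Among stages, lactation day 7 had the highest pan-leukocyte sum in members and days 140 to 150 the highest lymphocyte sum. All 7 of its members had over 100 CPM on lymphocyte markers (172 to 7837 CPM), against 14 of its 204 comparison cells. Summed over its members, 11 of 11 lymphocyte markers and 7 of 7 pan-leukocyte markers in the table had reads, at 928 and 1184 CPM against 141 and 49.6 CPM in comparison cells. Macrophage markers were at 486 against 49.0 CPM there, with 9 of 10 having reads. Hepatocyte RNA of these 7 cells ran from 0.518 to 17.8% of reads. The cell at 0.518% had 1844 CPM of ALB and 906 CPM of PTPRC, and the cell at 17.8% had 90041 CPM of ALB and 19.3 CPM of PTPRC. At days 140 to 150 lymphocyte markers summed to 1164 CPM in the 4 members, with reads for 4 of the 11, against 14.9 CPM in comparison cells. In virgin members lymphocyte and pan-leukocyte markers were at 6.73 and 8.49 CPM, against 8.85 and 9.84 CPM in comparison cells. Lymphocyte or pan-leukocyte markers were over 100 CPM in 4 of 27 members at days 70 to 80 and 2 of 5 at days 100 to 120, and pan-leukocyte sums there reached 2460 and 1665 CPM. The part of leukocyte RNA in the results of these stages was not tested.

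Markers of other liver cells were present at various levels. Endothelial markers (12 in the table) summed to 0 to 36.7 CPM in members and 5.19 to 16.6 CPM in comparison cells, and stellate and fibroblast markers (12 in the table) to 0 to 73.0 and 3.54 to 28.6 CPM. The highest stellate value was that of virgin members, against 5.26 CPM in their comparison cells. Bile duct markers (9 in the table), of which ANXA4 had the highest level, ran from 174 to 726 CPM in members and 194 to 420 CPM in comparison cells. Neutrophil markers (4 in the table) reached 531 CPM in members of lactation day 15, and a single member held 95.02% of the members' S100A8 reads. EdgeR called 0 genes of these lists and of the macrophage, lymphocyte and pan-leukocyte lists, while DESeq2 called 1 lymphocyte and 3 pan-leukocyte genes higher.

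Leaving out every cell with PTPRC reads kept 65 members of virgin sheep and days 70 to 80, with 1 residual degree of freedom. Of 14856 genes tested there, 448 were called, 353 higher and 95 lower. CYP2E1 was at -1.03 log2 (edgeR adjusted p = 0.0015), GLUL at -2.11 (edgeR adjusted p = 0.00085), RHBG at -1.43 (edgeR adjusted p = 0.0048) and PCK1 at -0.86 (edgeR adjusted p = 0.020). This fit also left out days 100 to 120 and lactation day 7. Virgin sheep and days 70 to 80 with PTPRC cells kept gave 568 called of 15218 genes, 424 higher and 144 lower. Leaving out PTPRC cells therefore did not raise the count of called genes in virgin sheep and days 70 to 80.

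An interaction term compared the difference between members and comparison cells between pregnancy and lactation. Lactation is here the single sample of day 7, with 7 members and no spread of its own, and the fit leaves 1 residual degree of freedom, so its calls set that sample against 2 gestation stages and do not show a difference between pregnancy and lactation. It called 120 of 14534 genes (0.826%), 64 more positive in gestation (0.44%) and 56 more positive on lactation day 7 (0.385%). With all stages of 2 or more members, which brings in both lactation days, 1 gene was called, and 3 when PTPRC cells were left out too, and 0 of these were among the 120.

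Among the genes named on the lactation side were CD74, CCL5 and GNLY. CD74, the invariant chain of antigen presentation, was at 1050 CPM in members of lactation day 7 and 29.8 CPM in its comparison cells, against 27.1 and 33.7 CPM at days 70 to 80. CCL5, a chemokine of lymphocytes, was at 244 and 3.93 CPM on lactation day 7, and GNLY, a protein of killer lymphocytes, at 802 and 27.3 CPM. A single cell held 95.5% of the members' GNLY reads, 67.4% of CD74 and 57.4% of CCL5.

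On the gestation side HAMP, the iron hormone hepcidin, was at 582 CPM in members and 129 CPM in comparison cells of days 70 to 80, at 3526 and 1016 CPM at days 100 to 120, and at 890 and 2084 CPM on lactation day 7. SPP2, a secreted phosphoprotein, was at 4171 and 6223 CPM at days 70 to 80 and at 556 and 2897 CPM on lactation day 7. HBB, a haemoglobin chain, was named by the same rule, and 1 cell held 96.6% of its member reads.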

How the data were processed

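Read counts per gene and cell were used as the authors deposited them, 1 column per hand-picked cell. The submitters' processing notes name Trimmomatic 0.39, HISAT2 2.1.0 and featureCounts 2.0.1; the genome build and any collapsing of molecular identifiers are not given in the sources used here. Of 28861 table entries, 24 had no gene name (0.474% of reads) and were left out. Each stage is 1 sample, so cells were never replicates, and p-values measure the spread between stages only. Members and gene lists were chosen with earlier results of these data known.

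Counts were summed per stage and kind of cell and fitted with edgeR 4.0.16 (R 4.3.3; quasi-likelihood test, TMM, filterByExpr, stage as a block, Benjamini-Hochberg over all genes, threshold 0.05), which pairs both kinds of cell by the stage they come from. DESeq2 1.42.0 and limma 3.58.1 (mean log2(CPM + 1) per cell) were alternatives. Shares and medians were compared by exact permutation over stages (SciPy 1.17.1). The script was tested on simulated data. Genes named in the text were BIRC5, TPX2 and PTPRC, the 12 largest called changes per direction with at least 20 CPM and one direction in all stages fitted, up to 4 called genes per list (otherwise the 2 most abundant), and 6 per direction of the interaction. Some genes that the rule chose are not reported here. APOB and FGB were chosen after their values were seen.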

Additional observations from a re-analysis of the deposited data

Results flagged for a closer look

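Among the 6 gestation stages, days 70 to 80 lay far above the others in the share of members: 10.7% against 0.505 to 1.42%. The same held in thinned cells (10.3% against 0 to 1.18%), for cells with at least 6 of the 8 genes (8.70% against 0 to 0.850%) and without cells with PTPRC reads (10.6% against 0.445 to 1.48%). These 4 values come from the same cells and are not independent. Within days 70 to 80 the share differed by run of columns, from 2.25% (2 of 89) to 16.8% (20 of 119). The difference of PCK1 between members and comparison cells, on the log2(CPM + 1) scale, was -0.12 at days 90 to 100, where 2 cells were members, against -1.74 to -1.16 in the other gestation stages. Of 12 groups checked 5 stood out in this way, and chance marks about 1 in 20.

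The edgeR interaction term called 120 genes whose difference between members and comparison cells was not the same in the gestation stages and on lactation day 7. Lactation is 1 sample here, with 1 residual degree of freedom, so the calls do not show a difference between pregnancy and lactation. With both lactation days 1 gene was called, and 0 were shared with the 120. Of the genes named, on the log2 scale and as gestation minus lactation, HAMP was at 3.26, SPP2 at 2.07, MAPK6 at 2.65 and HBB at 8.38. DNAH8 (14.48) had 0 reads in members of lactation day 7, so its fitted value is no bound. On the other side GNLY was at -7.56, CD74 at -5.91, TMSB4X at -4.74, OVAR-DRB1 at -5.43, CCL5 at -8.50 and COTL1 at -6.33. A single member held 37.6% of the members' TMSB4X reads, 80.7% of OVAR-DRB1 and 43.4% of COTL1.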

How the results depend on the processing

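With 235 genes called in the 4 stages, the alternatives gave 61 (at least 2 of 8 genes), 787 (thinned cells), 448 (no PTPRC cells), 568 (10 or more members per stage), 146 (no members low in hepatocyte RNA), 629 (DESeq2, with 564 adjusted p not given) and, chosen after seeing the data, 625 (at least 6 of 8, 2 or more members per stage, no PTPRC cells). Leaving out a stage gave 159 to 204. Without the replicate block that pairs the kinds of cell by stage 202 were called, 199 higher and 3 lower; limma with equal weight per cell gave 185 higher and 9 lower. Other splits were 140 and 6 (no members low in hepatocyte RNA), 531 and 256 (thinned) and, chosen after seeing the data, 109 and 170 (2 or more members per stage). Comparison cells only from runs that hold members, also chosen after seeing the data, gave 189 and 27.

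With 120 genes in the interaction, the alternatives gave 0 (at least 2 of 8; 273 at an unadjusted p under 0.05), 438 (limma, 94 more positive in gestation), 119 (DESeq2, 28 more positive in gestation), 143 (without the virgin stage) and, chosen after seeing the data, 1 (2 or more members per stage), 3 (the same without PTPRC cells) and 12 (also at least 6 of 8). It could not be fitted with 1 phase or too few stages left (thinned cells, 5 reads per gene, no PTPRC cells, 10 members per stage, at least 6 of 8, or without days 70 to 80, days 100 to 120 or lactation day 7).

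Detected genes, a count linked to the choice of members, differed by 536 with at least 2 of 8 (exact permutation p = 0.0156, 9 stages). With a stage left out they differed by 479 to 804. Hepatocyte RNA differed by -4.56 points with at least 6 of 8. The share difference ran from -0.73 to 2.04 points and the reads ratio from -0.17 to 0.44 log2 with a stage left out.

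Of 2083 values of the 88 named genes under an alternative, 1840 kept direction and call, 196 lost the call, 40 gained it and 7 reversed. Reversed were GLUL (0.23, limma), HBB (2.70, 10 members per stage), CD74 (-2.19, thinned) and, in the interaction, HAMP (-0.42, 2 or more members per stage without PTPRC cells), HBB (-0.028, limma), and MAPK6 (-0.57) and OVAR-DRB1 (9.98) with at least 6 of 8 and no PTPRC cells. The cause was not tested.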

Other observations

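DNAH8, a dynein heavy chain, was high in members of some stages. It stood at 33.8 CPM in virgin members, 72.9 CPM at days 50 to 70, 105 CPM at days 70 to 80 and 37.3 CPM at days 100 to 120, against 1.04 to 5.55 CPM in comparison cells of the 9 stages. Members of days 140 to 150 and of lactation day 7 had 0 reads of it. Reads were seen in 51 of 97 members and 341 of 2719 comparison cells, and its estimate over the 4 stages was 3.48 log2 (SE 1.07, edgeR adjusted p = 0.235). Of 23 alternatives 7 called it and 16 did not, with estimates from 1.28 to 4.33 log2.

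The 4 members of days 140 to 150 had the highest summed replication RNA of any stage, 3883 CPM over 58 genes, against 357 CPM in comparison cells of that stage. It lay in 2 cells, at 6491 and 5118 CPM, which had 0 CPM of lymphocyte markers, while the other 2 were at 444 and 457 CPM with 3701 and 2595 CPM of lymphocyte markers. Summed over the 4 cells, hepatocyte RNA was the farthest below that of comparison cells of the 9 stages (12.8 against 19.2%). This stage did not enter the test across genes.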
